A study of Mus musculus with 12 samples.

Results

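The matrix metalloproteinases are zinc-dependent enzymes that cut collagen, elastin, laminin and other proteins of the extracellular matrix, and the Timp proteins are their tissue inhibitors. The expression of 10 genes of this system was followed here: the metalloproteinases Mmp2, Mmp3, Mmp9, Mmp10, Mmp12, Mmp13 and Mmp14, and the inhibitors Timp1, Timp2 and Timp3. They were found by gene symbol in a table of 36254 genes, and each symbol matched 1 row. RNA was sequenced from 12 C57 mouse samples in 4 groups of 3 libraries. Taurine and Proline are orthotopic lung tumours, that is, grown in the organ they model, that received the amino acid naming the group. Model is the same kind of tumour without amino acid treatment, and Control is normal lung. All samples, Control included, carry the tissue label lung tumour. The comparisons follow the series description, in which the control is normal lung. The sources used here do not give the age of the mice, the tumour cells, the dose or the treatment time, nor whether replicates are separate animals. The p-values therefore measure the spread between these samples, which may be technical.

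Most metalloproteinases are secreted as inactive precursors and are held in check by Timp proteins that occupy the active site. Mmp14 is instead anchored in the cell membrane, where it cuts collagen directly and, with Timp2 as a bridge, activates the precursor of Mmp2. In lung tumours, stromal and inflammatory cells as well as tumour cells are known to make these enzymes.

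The 10 genes lie on 7 chromosomes, and 4 of them are neighbours. On GRCm38, Mmp13 spans chr9:7272514-7283331, Mmp12 chr9:7344381-7369499, Mmp3 chr9:7445822-7455975 and Mmp10 chr9:7502352-7510240, all on the plus strand and together within 238 kb. Mmp2 spans chr8:92827291-92853420, Mmp9 chr2:164940780-164955850 and Mmp14 chr14:54431612-54445364, all on the plus strand. Timp1 spans chrX:20870166-20874735 and Timp3 chr10:86300372-86349506, both on the plus strand, and Timp2 spans chr11:118301069-118355740 on the minus strand. Timp1 lies within Syn1 and Timp3 within Syn3, both on the opposite strand. Timp2 overlaps Cep295nl on the same strand and Mmp12 overlaps Mmp1b on the opposite strand. The sources used here do not say whether counting used strand, so reads of such overlapping genes cannot be told apart.

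The promoters of the 4 chromosome 9 genes are shown because their RNA levels were high together in 1 proline-treated tumour, described further on. Each line gives the 250 bases before an annotated start, 5′ to 3′ on the plus strand, from RefSeq (GRCm38.p6), at chr9:7272264-7272513 for Mmp13, chr9:7347124-7347373 for the second annotated start of Mmp12, chr9:7445572-7445821 for Mmp3 and chr9:7502092-7502341 for Mmp10. Capitals mark 2 of the 4 searched motifs. They are TGAGTCA or its reverse complement TGACTCA, the letters bound by AP-1 (dimers of Fos and Jun proteins), and TATAAA, the core of a TATA box. The others searched, not marked, were GGGCGG (GC box) and AACCACA (Runx).
Mmp13: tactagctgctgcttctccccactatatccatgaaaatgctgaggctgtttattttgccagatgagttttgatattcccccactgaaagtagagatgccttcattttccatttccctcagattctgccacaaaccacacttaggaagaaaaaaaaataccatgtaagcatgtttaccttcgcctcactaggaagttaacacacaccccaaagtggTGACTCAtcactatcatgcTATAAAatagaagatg
Mmp12, second start: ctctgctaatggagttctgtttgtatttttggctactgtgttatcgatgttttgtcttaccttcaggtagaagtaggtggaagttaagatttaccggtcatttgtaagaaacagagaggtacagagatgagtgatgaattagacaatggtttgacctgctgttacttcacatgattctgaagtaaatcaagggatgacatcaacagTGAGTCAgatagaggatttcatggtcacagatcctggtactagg
Mmp3: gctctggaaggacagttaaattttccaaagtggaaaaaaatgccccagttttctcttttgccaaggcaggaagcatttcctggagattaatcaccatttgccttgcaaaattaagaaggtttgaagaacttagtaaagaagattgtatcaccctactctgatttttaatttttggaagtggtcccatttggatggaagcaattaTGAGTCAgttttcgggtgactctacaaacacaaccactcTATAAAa
Mmp10: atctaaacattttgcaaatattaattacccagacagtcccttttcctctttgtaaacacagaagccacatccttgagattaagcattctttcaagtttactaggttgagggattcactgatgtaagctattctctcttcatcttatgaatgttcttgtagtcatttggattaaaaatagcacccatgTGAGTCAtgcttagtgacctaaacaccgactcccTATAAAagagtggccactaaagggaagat
The AP-1 letters stood 35 to 29 bases before the start in Mmp13, 44 to 38 in Mmp12, 46 to 40 in Mmp3 and 63 to 57 in Mmp10. They were absent from the window of the first annotated start of Mmp12 and from those of Mmp14, Timp1, Timp2 and Timp3. Of all 32851 promoter windows of this length, 4.46% held the AP-1 letters on either strand, and 12.4% held TATAAA on either strand, as did those of Mmp13, Mmp3 and Mmp10. The Runx letters, in 4.4% of all windows, stood 119 to 113 bases before the start in Mmp13. The GC box letters, in 32.7% of all windows, were in those of Mmp14, Timp1, Timp2 and Timp3. A match of letters is a description and not a measured binding site. Of the 10 genes, 8 matched an entry in the promoter table. Mmp2 and Mmp9 had no entry.

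Libraries held 56542745 to 69456490 counts. All 10 genes passed the filter on low counts, as did 23191 genes in all, although Mmp10 was near 0 in most libraries. Levels below are FPKM, which are scaled to gene length, and fold changes and p-values come from edgeR's quasi-likelihood test on the counts, fitted on all libraries and adjusted over all genes tested. A gene was called at an adjusted p under 0.05. Lung markers followed the description of the groups. The summed level of 8 alveolar type 2 markers was 97.5 to 816 CPM in the tumours and 23574 to 26299 CPM in Control, and that of 6 alveolar type 1 markers was 49.7 to 112 CPM in the tumours and 4475 to 4788 CPM in Control. In bulk RNA, fewer cells of a type and less RNA per cell cannot be told apart.

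Among the 7 metalloproteinases followed here, Mmp14 gave most of the RNA in untreated tumours, and Mmp2 and Mmp3 gave most of it in normal lung. Mmp14 made up 80.7% ± 3.36 of the summed FPKM of the 7 metalloproteinases in Model and 16.8% ± 0.945 in Control (SD, n = 3 each). Mmp2 made up 4.65% in Model and 38.6% in Control, and Mmp3 6.89% in Model and 38.4% in Control. Among the 3 inhibitors, Timp3 made up 1.62% ± 0.269 in Model and 39.3% ± 1.76 in Control, and Timp1 19.4% in Model and 3.11% in Control. Timp2 had the largest share of the summed Timp FPKM in both groups, with 79.0% in Model and 57.6% in Control. The ratio of summed metalloproteinase to summed Timp level was 0.533 ± 0.0297 in Model and 0.297 ± 0.0383 in Control, and the libraries of the 2 groups did not overlap. This difference depended on which metalloproteinases were summed. Over all 22 metalloproteinase genes looked up in the table, and the same 3 Timp genes, the ratio was 0.724 ± 0.0389 in Model and 0.643 ± 0.0634 in Control (SD, n = 3 each), and the groups overlapped. Of that wider sum, Mmp14 made up 59.5% in Model and 7.75% in Control, Mmp2 and Mmp3 together 8.51% in Model and 35.5% in Control, and Mmp15, a membrane-type enzyme outside the 7, 0.623% in Model and 28.4% in Control. These sums weigh RNA only and say nothing of enzyme activity.

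**Figure D1:**
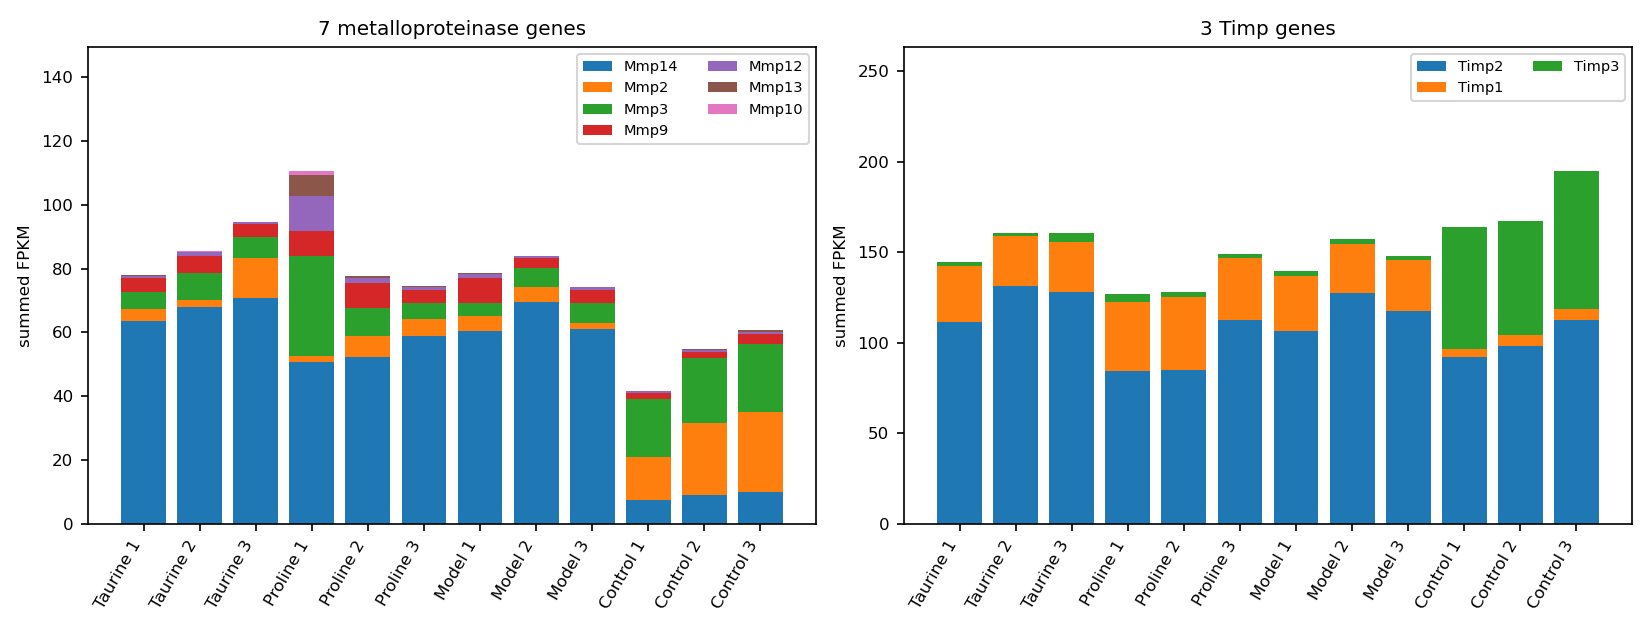
Summed FPKM (vertical axes) of the 7 metalloproteinases (left) and the 3 Timp genes (right) in each of the 12 libraries, as stacked bars coloured by gene. Mmp14 fills 80.7% of the metalloproteinase bar on average in Model and 16.8% in Control, and Timp3 fills 1.62% of the Timp bar in Model and 39.3% in Control.

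The comparison of Model with Control asks how untreated tumour differs from normal lung. Mmp14, Timp1 and Mmp9 were called higher in Model, and Timp3, Mmp2 and Mmp3 were called lower. Of all genes tested, 28.8% were called higher and 29.3% lower in this comparison, 58.1% in all. A count of 6 called among 10 is therefore close to the share over all genes. For 5 of the 10 genes the groups stood apart without overlap, against 68.9% of all genes. The median log2 fold change of the 10 genes was 0.42, with Mmp10 entering at its lower bound, and that of all genes was -0.03.

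Mmp14, the membrane-anchored collagenase that activates Mmp2, had 60.3, 69.7 and 61.2 FPKM in Model and 7.45, 9.04 and 9.75 FPKM in Control. Every tumour library lay above every normal lung library. The level was 6.71-fold higher in Model (log2 fold change 2.75, SE 0.10, adjusted p 3.71e-09).

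The gelatinase Mmp2, which cuts denatured collagen and the type IV collagen of basement membranes, had 4.83, 4.61 and 1.72 FPKM in Model and 13.6, 22.6 and 25.3 FPKM in Control. All normal lung libraries were above all Model libraries, and the level was 6.0-fold lower in Model (log2 fold change -2.59, SE 0.67, adjusted p 0.00646). Mmp2 thus differed in the opposite direction from Mmp14, its activator. The other gelatinase, Mmp9, a product of neutrophils and macrophages among others, had 7.71, 3.24 and 4.07 FPKM in Model and 1.94, 1.98 and 3.11 FPKM in Control. The groups lay close: the lowest Model library stood just above the highest Control library in FPKM, and just below it in CPM, at 14.4 CPM in Model 2 and 15.1 CPM in Control 3. Mmp9 was called at 1.97-fold higher in Model (log2 fold change 0.98, SE 0.34, adjusted p 0.0293), but the call rested on single libraries. Without Model 1 the log2 fold change was 0.54 (adjusted p 0.159), without Control 1 it was 0.87 (adjusted p 0.0951) and without Control 2 it was 0.86 (adjusted p 0.0973). The summed level of 10 neutrophil markers was 45.9 to 78.7 CPM in Model and 103 to 143 CPM in Control, lower in Model. Of these markers, 0 to 2 were at 0 counts in a Model library and 1 to 3 in a Control library. The part of neutrophils in the Mmp9 difference was not tested.

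The stromelysin Mmp3, which degrades proteoglycans, laminin and fibronectin and activates other metalloproteinases, had 4.14, 5.94 and 6.19 FPKM in Model and 17.98, 20.2 and 21.4 FPKM in Control. The groups were well apart, and Mmp3 was 3.95-fold lower in Model (log2 fold change -1.98, SE 0.55, adjusted p 0.00944). Its close relative Mmp10, the second stromelysin, had 15 counts in Model 2 and 0 counts in the other Model libraries and in all Control libraries. Mmp10 did not pass (adjusted p 0.206), and a level resting on 1 library gives no usable fold change. Mmp12, the macrophage elastase, had 1.16, 0.456 and 1.19 FPKM in Model and 0.515, 0.514 and 0.510 FPKM in Control, so 1 Model library lay below all Control libraries and the others above (log2 fold change 0.75, SE 0.79, adjusted p 0.441). Macrophage markers had a summed level of 1874 to 2558 CPM over all tumours and 3969 to 4755 CPM in Control. Mmp13, a collagenase that cuts fibrillar collagen, had 0.372, 0 and 0.0326 FPKM in Model and 0.183, 0.358 and 0.595 FPKM in Control. It did not pass (log2 fold change -1.60, SE 1.42, adjusted p 0.361), although without Model 1 it did (log2 fold change -4.46, adjusted p 0.0485).

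Each inhibitor behaved differently. Timp1, a secreted inhibitor of many metalloproteinases that is a poor inhibitor of Mmp14, had 30.6, 27.3 and 28.1 FPKM in Model and 4.22, 6.14 and 6.05 FPKM in Control. It was 4.83-fold higher in Model (log2 fold change 2.27, SE 0.14, adjusted p 1.27e-07), with no overlap. Its opposite-strand neighbour Syn1 was also higher in Model, with 2.07 to 2.65 FPKM in Model and 0.151 to 0.341 FPKM in Control. In counts, Syn1 had 596 to 730 in Model and 40 to 90 in Control, and Timp1 had 2085 to 2218 in Model and 294 to 435 in Control. The part of shared reads in the Timp1 difference was not tested.

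Timp3, the inhibitor that stays bound to the matrix and also acts on Adam proteases, had 2.67, 2.46 and 2.05 FPKM in Model and 67.4, 62.9 and 76.5 FPKM in Control. This was the largest difference among the called genes of the family, 31.3-fold lower in Model (log2 fold change -4.97, SE 0.41, adjusted p 1.45e-06). Endothelial markers were also low in tumours, at 242 to 544 CPM over the tumour libraries and 6024 to 6674 CPM in Control, and smooth muscle markers reached 71.5 to 154 CPM in Model and 859 to 1004 CPM in Control. Their part in the Timp3 difference was not tested.

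Timp2, which inhibits metalloproteinases and also helps Mmp14 to activate Mmp2, had 106, 128 and 118 FPKM in Model and 92.3, 98.3 and 113 FPKM in Control. The groups overlapped, and the log2 fold change of 0.10 had a 95% interval of -0.17 to 0.37 (adjusted p 0.520). Timp2 had the highest FPKM of the 10 genes in every library. This order depended on the scaling to gene length. In CPM, which are not scaled to it, Timp3 stood above Timp2 in Control, with 702 to 852 CPM against 551 to 652 CPM.

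**Figure D2:**
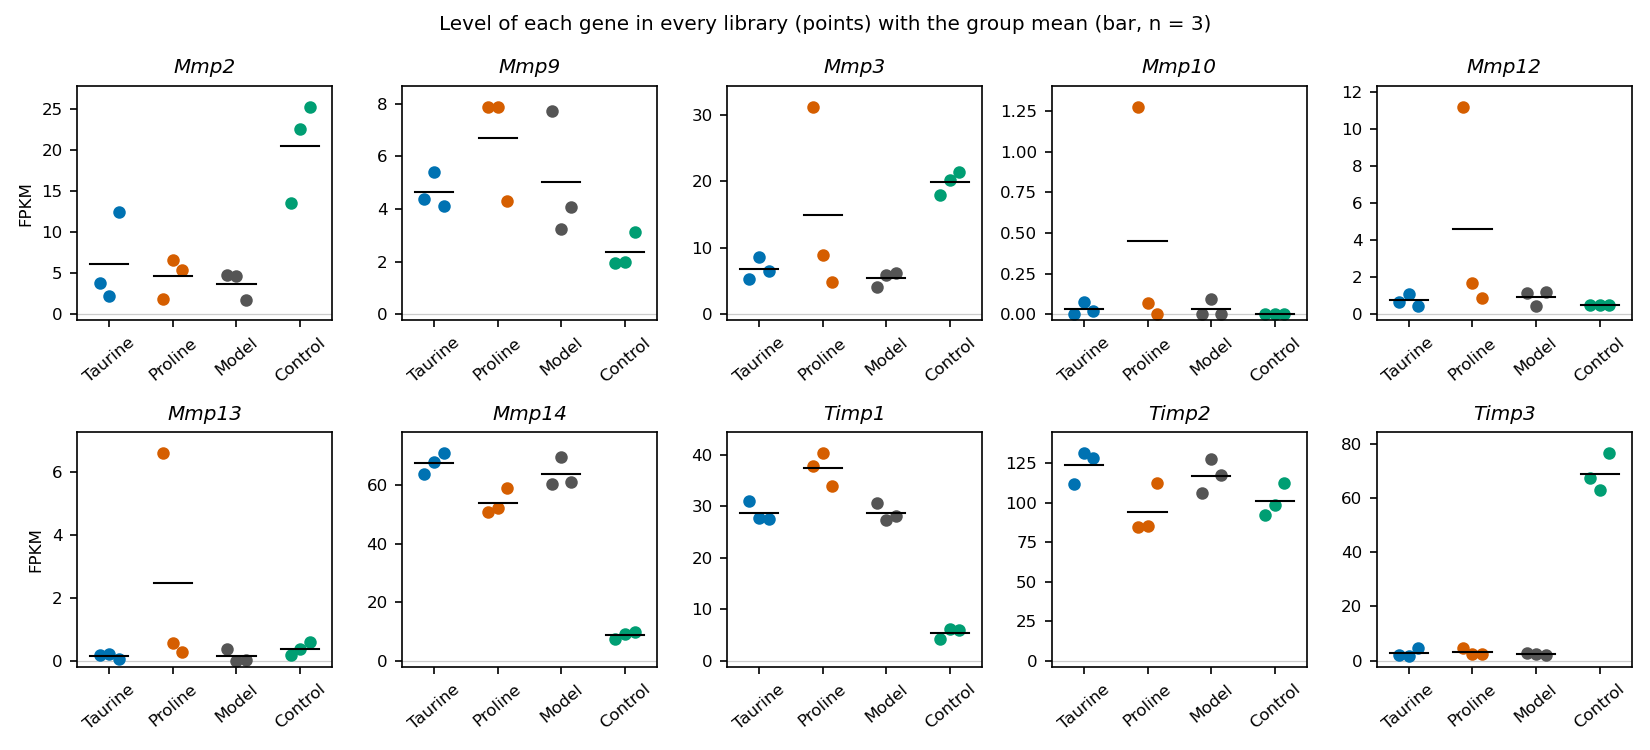
Level in FPKM (vertical axes, each on its own linear scale) of the 10 genes in the Taurine, Proline, Model and Control groups. Points are single libraries and bars are the group means (n = 3). Mmp14 and Timp1 are high and Timp3 is low in all tumour libraries. Among the tumours, Mmp3, Mmp10, Mmp12 and Mmp13 each have 1 high library, Proline 1, and Mmp3 is also high in Control.

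Genes that work with this system were followed through 7 lists. Of 10 other metalloproteinases with enough counts, 1 was higher in Model, 5 were lower and 4 did not pass. Mmp15, another membrane-type enzyme, had 0.667 ± 0.195 FPKM in Model and 32.0 ± 4.31 FPKM in Control (log2 fold change -5.70, adjusted p 3.47e-07), and Mmp28 was also lower (-3.43, adjusted p 6.03e-05). Mmp19 was the 1 that was higher (0.98, adjusted p 6.82e-04). Of 7 further inhibitors and cofactors, 2 were higher and 2 lower. Reck, a membrane-anchored inhibitor of metalloproteinases, had 1.47 ± 0.109 FPKM in Model and 12.2 ± 0.431 FPKM in Control (SD, n = 3 each; log2 fold change -3.17, adjusted p 1.88e-09). Bsg, which encodes the metalloproteinase inducer basigin, was lower as well (-0.51, adjusted p 0.00363). Pcolce, an enhancer of procollagen processing, was higher (1.68, adjusted p 1.82e-07), and so was Furin, the convertase that activates the Mmp14 precursor (0.34, adjusted p 0.0189).

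Of 11 genes of the plasminogen system, which activates secreted metalloproteinase precursors, 4 were higher in Model, 1 was lower and 6 did not pass. Plau, the urokinase activator, had 37.6 ± 4.29 FPKM in Model and 3.84 ± 0.547 FPKM in Control (log2 fold change 3.17, adjusted p 6.16e-08), and S100a10, part of a cell-surface plasminogen receptor, was higher by 1.14 on the log2 scale (adjusted p 1.94e-07). Serpine2, an inhibitor of plasminogen activators and thrombin, was lower (-4.41, adjusted p 1.66e-06). Of 17 Adam and Adamts proteases, 6 were higher and 8 lower, with Adamts14 (4.09, adjusted p 2.06e-09) and Adamts4 (2.53, adjusted p 1.45e-06) among the higher and Adam15 (-0.86, adjusted p 1.40e-06) and Adam19 (-3.03, adjusted p 4.47e-06) among the lower. All 10 genes of the cathepsin and cystatin list were called, 6 higher and 4 lower. Ctsl and Ctsb, lysosomal proteases that can be secreted, were higher (2.52 and 1.58, adjusted p 2.97e-09 and 3.37e-08). Cst3, the inhibitor cystatin C, was lower (-1.68, adjusted p 8.33e-09), as was Ctsh (-2.57, adjusted p 1.21e-05).

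Matrix proteins that these enzymes cut were also mixed, with 6 of 15 higher in Model and 8 lower. Fn1, fibronectin, had 259 ± 11.5 FPKM in Model and 23.2 ± 0.329 FPKM in Control (log2 fold change 3.36, adjusted p 4.13e-09), and the basement membrane protein Nid1 was higher by 2.39 on the log2 scale (adjusted p 1.71e-09). The proteoglycan Bgn (-3.63, adjusted p 3.87e-06) and the laminin chain Lama4 (-2.48, adjusted p 8.49e-06) were lower. All 13 AP-1, Ets and Runx factors were called, 5 higher and 8 lower. Runx2, a regulator of Mmp13 in bone, had 4.91 ± 0.0878 FPKM in Model and 0.495 ± 0.0537 FPKM in Control (log2 fold change 3.19, adjusted p 1.16e-09), and the Ets factor Etv4 was higher too (7.89, adjusted p 2.31e-07). Fos had 5.03 ± 0.689 FPKM in Model and 121 ± 11.9 FPKM in Control (log2 fold change -4.71, adjusted p 4.20e-08), and Etv5, which is also an alveolar type 2 marker, was lower (-2.03, adjusted p 8.81e-08). Fosl1, an AP-1 subunit named here after its values were seen, had 26.1 ± 8.06 FPKM in Model and 0.0607 ± 0.0855 FPKM in Control (log2 fold change 8.49, adjusted p 9.17e-07). The median log2 fold changes of the lists were -1.85 for the other metalloproteinases, -0.51 for inhibitors and cofactors, 0.52 for the plasminogen system, -0.68 for Adam and Adamts proteases, 0.67 for cathepsins, -0.42 for matrix proteins and -1.19 for the transcription factors, beside -0.03 over all genes. With 58.1% of all genes called, the counts are read as a description of each list.

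**Figure D3:**
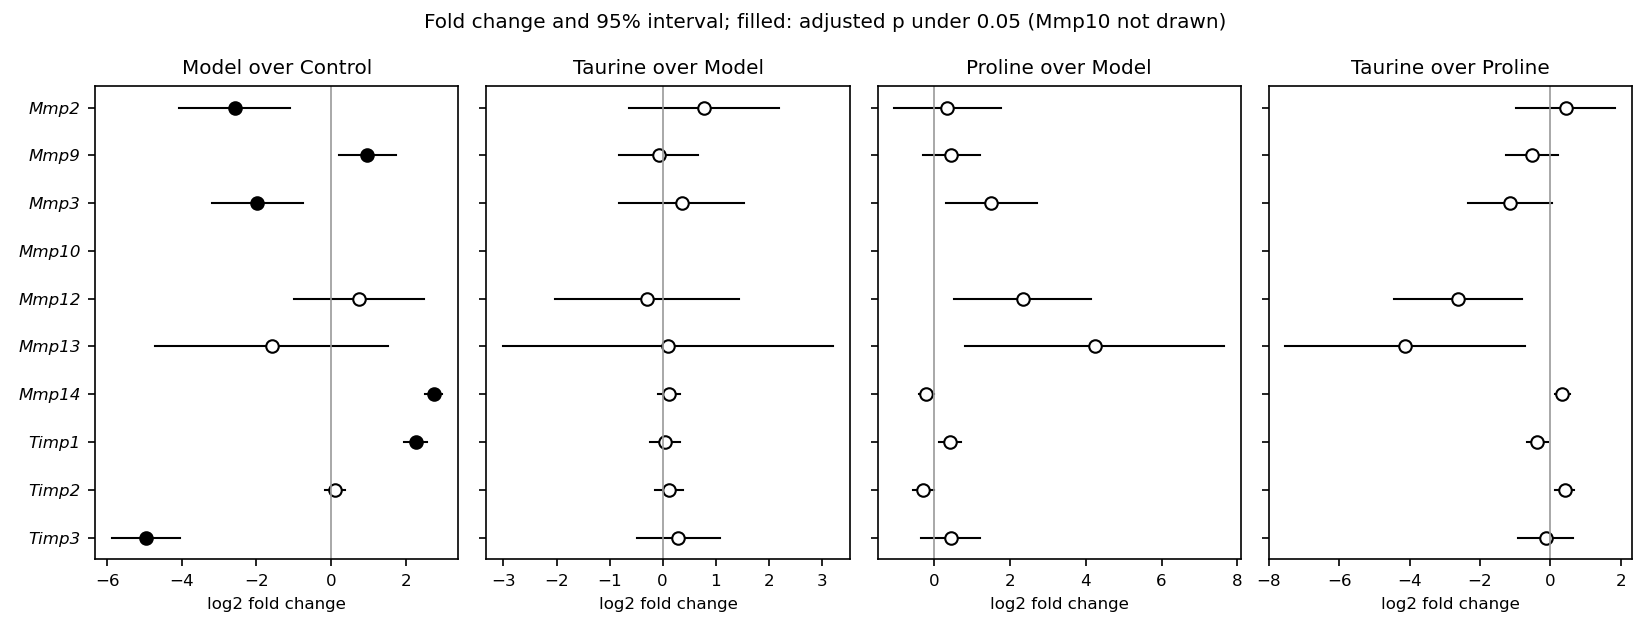
Log2 fold change (horizontal axis) with its 95% interval for the family genes in each of the 4 comparisons, from edgeR's quasi-likelihood test. Mmp10 is not drawn because Control had 0 counts of it. Intervals of Mmp14, Timp1 and Timp3 are narrow beside their changes in Model against Control, and those of Mmp12 and Mmp13 are wide in all 4 comparisons. Filled points passed an adjusted p of 0.05.

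The comparison of Taurine with Model asks whether RNA levels differ in taurine-treated tumours. None of the 10 genes was called by edgeR, none had an unadjusted p under 0.05, and none separated the groups. DESeq2 and limma called none of them either. Over all genes, edgeR called 0%, 6.79% had an unadjusted p under 0.05 and 11.8% separated the groups. Mmp14 had 63.7, 67.9 and 70.9 FPKM in Taurine, against the 60.3 to 69.7 FPKM of Model, and its log2 fold change of 0.12 had a 95% interval of -0.09 to 0.33 (adjusted p 0.844). Timp1 had 31.0, 27.7 and 27.6 FPKM in Taurine, nearly the values of Model (0.04, interval -0.25 to 0.33, adjusted p 0.999). Timp2 had 112, 131 and 128 FPKM in Taurine (0.12, interval -0.15 to 0.39, adjusted p 0.909). For these 3 abundant genes the intervals leave room for small differences only.

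The other genes varied more. Mmp2 had 3.79, 2.23 and 12.5 FPKM in Taurine, with Taurine 3 above every other tumour library (log2 fold change 0.79, SE 0.64, adjusted p 0.863). Without Taurine 3 the log2 fold change was -0.27. Timp3 had 2.09, 1.75 and 4.70 FPKM in Taurine, again with Taurine 3 high, and its log2 fold change of 0.30 (adjusted p 0.929) was -0.28 without that library. Mmp9 had 4.36, 5.41 and 4.12 FPKM in Taurine, all inside the Model range. Mmp3 had 5.24, 8.53 and 6.56 FPKM in Taurine, with Taurine 2 and Taurine 3 above the Model range and Taurine 1 inside it (log2 fold change 0.36, adjusted p 0.960). Mmp12 had 0.675, 1.11 and 0.453 FPKM and Mmp13 0.172, 0.196 and 0.0540 FPKM in Taurine, low levels like those of Model. Mmp10 had 0, 12 and 4 counts in Taurine and 0, 15 and 0 counts in Model.

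In Proline against Model, again no gene was called by edgeR, which called 0% of all genes in this comparison. At an unadjusted p under 0.05 there were 6 of 10 genes, against 13.4% of all genes, and 2 genes separated the groups, against 18%. The 6 were Timp1, Mmp14, Timp2 and the chromosome 9 neighbours Mmp3, Mmp12 and Mmp13 (unadjusted p 0.0191, 0.0161 and 0.0200 in edgeR). The differences of these neighbours rested largely on Proline 1, as described further on. limma called none of the 10 and DESeq2 called Timp1 (log2 fold change 0.43, adjusted p 0.0494). Timp1 had 37.9, 40.3 and 34.0 FPKM in Proline and 30.6, 27.3 and 28.1 FPKM in Model, so each Proline library lay above each Model library. The difference was 1.33-fold (log2 fold change 0.41, SE 0.13, unadjusted p 0.00955, adjusted p 0.238 in edgeR). Syn1, the opposite-strand neighbour of Timp1, had 914 to 1106 counts in Proline and 596 to 730 counts in Model. Timp1 had 2715 to 3019 counts in Proline and 2085 to 2218 counts in Model. The part of shared reads in this difference was not tested. Mmp14 had 50.8, 52.1 and 58.9 FPKM in Proline, below all Model libraries (log2 fold change -0.21, SE 0.09, unadjusted p 0.0471, adjusted p 0.367). Timp2 had 84.5, 85.0 and 113 FPKM in Proline, where 2 libraries were below the Model range and 1 was inside it (log2 fold change -0.29, SE 0.12, unadjusted p 0.0362, adjusted p 0.336). The summed level of 10 fibroblast markers was 5456, 5382 and 7117 CPM in Proline and 6841, 8861 and 7885 CPM in Model. Proline 1 and Proline 2 were the lowest tumour libraries for these markers, for Mmp14 and for Timp2. Among the fibroblast markers, Col3a1 averaged 368 FPKM in Proline and 524 FPKM in Model. Col1a1 went the other way, with 20.8 FPKM in Proline and 17.9 FPKM in Model, so the sum does not follow every marker. The part of fibroblasts in the Mmp14 and Timp2 differences was not tested.

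The chromosome 9 genes shared a different pattern, in which 1 library, Proline 1, stood far above the other tumours. Mmp3 had 31.2, 8.85 and 4.83 FPKM in Proline and 4.14, 5.94 and 6.19 FPKM in Model. Normal lung was closer to Proline 1 for this gene, with 17.98 to 21.4 FPKM in Control. Mmp12 had 11.2, 1.69 and 0.859 FPKM in Proline and 1.16, 0.456 and 1.19 FPKM in Model. Mmp13 had 6.58, 0.552 and 0.283 FPKM in Proline and 0.372, 0 and 0.0326 FPKM in Model. In each, Proline 1 was the highest of the 12 libraries and Proline 3 lay within the Model range. Mmp10 had 193, 10 and 0 counts in Proline and 0, 15 and 0 counts in Model, so Proline 1 held most of its reads. The log2 fold changes of Mmp3 (1.5, SE 0.54, adjusted p 0.279), Mmp12 (2.33, SE 0.82, adjusted p 0.272), Mmp13 (4.23, SE 1.55, adjusted p 0.282) and Mmp10 (3.79, SE 2.32, adjusted p 0.517) did not pass. Without Proline 1 they were 0.35, 0.46, 1.64 and 0.08. The promoters of these 4 genes are shown above because of this pattern, and the part of AP-1 in it was not tested.

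Proline 1 also had the highest ratio of summed metalloproteinase to summed Timp level, which was 0.873, 0.608 and 0.501 in Proline and 0.503 to 0.563 in Model. Mmp14 made up 45.9% of the metalloproteinase sum in Proline 1. The same library differed in its cell markers. Its alveolar type 2 markers summed to 816 CPM, against 97.5 to 142 CPM in the other tumours, and its cartilage and bone markers to 41.7 CPM, against 11.9 to 21.5 CPM in the other libraries. It was also the highest tumour library for airway markers, with 210.3 CPM against 12.3 to 121 CPM in the other tumours, for endothelial markers, with 544 CPM against 242 to 367 CPM, and for T cell markers, with 57.4 CPM against 2.49 to 39.7 CPM. Its mesothelium markers were the lowest of the 12 libraries, at 34.3 CPM. Its skeletal muscle markers were the lowest as well, at 7.89 CPM. Of the 8 cartilage and bone markers, 3 were at 0 counts in Proline 1, and between 3 and 5 were at 0 counts in each library. Model libraries differed in their markers too. The summed level of 8 liver markers was 139 CPM in Model 1, 171 CPM in Model 2 and 1.69 CPM in Model 3. It was 1.03 to 2.97 CPM over Taurine and Proline and 0.634 to 32.8 CPM in Control. The part of these marker differences in the Mmp levels was not tested.

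**Figure D4:**
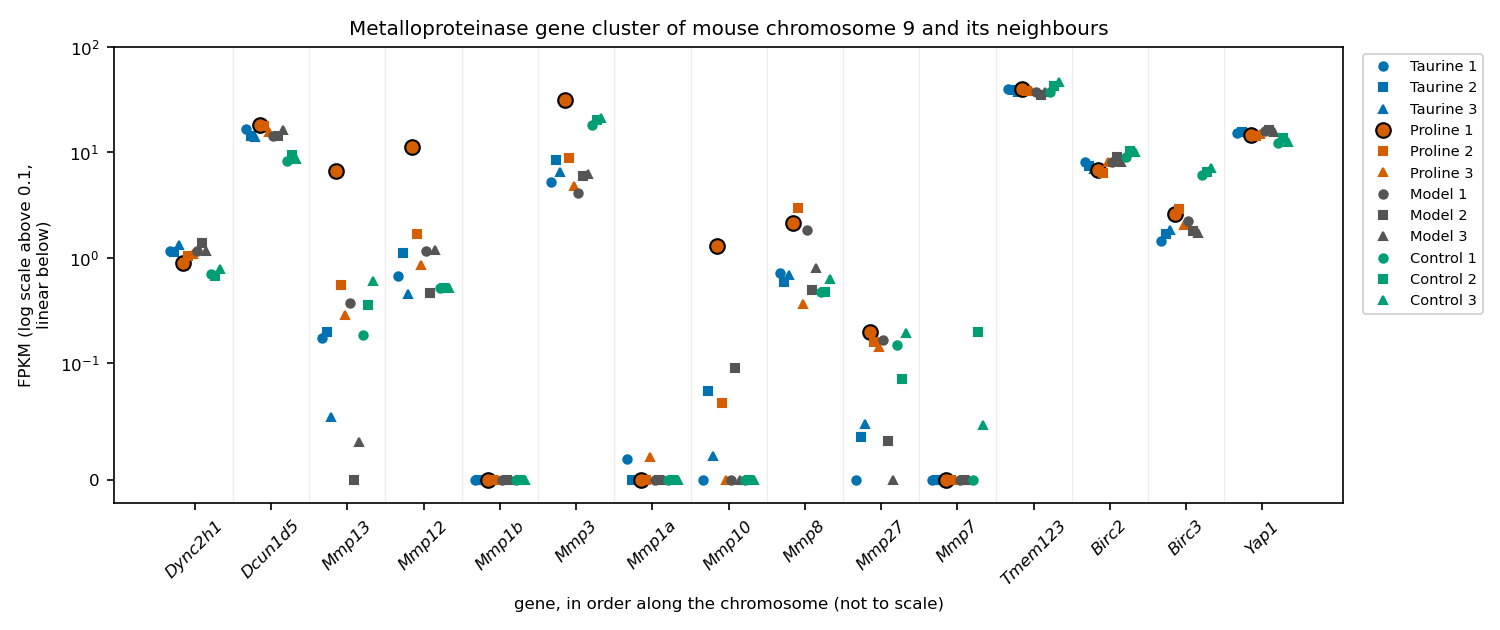
Level (FPKM, log scale above 0.1 and linear below) of the genes along the chromosome 9 metalloproteinase region, in their order on GRCm38 and not to scale, for the 12 libraries, with Proline 1 drawn as a larger marker with a black edge. Proline 1 stands above all other libraries at Mmp13, Mmp12, Mmp3 and Mmp10, whereas Proline 2 is highest at Mmp8 and the flanking Dcun1d5 spans 8.35 to 18.2 FPKM.

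The genes around these 4 were looked at after the values had been seen. Dcun1d5, the neighbour on the side of Mmp13, had 13.8 to 18.2 FPKM over the tumours and 8.35 to 9.33 FPKM in Control, and its highest library was also Proline 1, by a small margin. Mmp8, the neutrophil collagenase just beyond Mmp10, had 2.15, 2.98 and 0.365 FPKM in Proline and 1.81, 0.489 and 0.803 FPKM in Model, so its highest tumour library was Proline 2. Mmp27, the next gene, was barely detected, with 38, 30 and 29 counts in Proline and 32, 7 and 0 counts in Model, highest in Proline 1. Mmp1a, which lies between Mmp3 and Mmp10, had 4 counts in Taurine 1, 4 counts in Proline 3 and 0 counts in all others, Proline 1 included. Mmp7 and Mmp1b had 0 counts in every tumour library. Mmp20 was not analysed here.

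The remaining genes in Proline followed other libraries. Mmp9 had 7.88, 7.86 and 4.29 FPKM in Proline and 7.71, 3.24 and 4.07 FPKM in Model (log2 fold change 0.45, adjusted p 0.615). Mmp2 had 1.86, 6.59 and 5.39 FPKM in Proline (0.34, adjusted p 0.887), with Proline 1 low. Timp3 had 4.54, 2.54 and 2.36 FPKM in Proline (0.43, adjusted p 0.650), with Proline 1 high, and without Proline 1 its log2 fold change was 0.05.

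Taurine and Proline were also compared with each other, which tests the difference between the amino acids directly. No gene of the family was called by edgeR, which called 0.0431% of all genes. At an unadjusted p under 0.05 there were 5 of 10 genes, against 14.4% of all genes, and 3 separated the groups, against 16.8%. Mmp14 was higher in every Taurine library, with 63.7 to 70.9 FPKM in Taurine and 50.8 to 58.9 FPKM in Proline (log2 fold change 0.33, SE 0.09, unadjusted p 0.00487, adjusted p 0.162). Timp1 was lower in every Taurine library, with 27.6 to 31.0 FPKM in Taurine and 34.0 to 40.3 FPKM in Proline (-0.37, unadjusted p 0.0169, adjusted p 0.241). Its neighbour Syn1 was lower in every Taurine library too, with 773 to 883 counts in Taurine and 914 to 1106 counts in Proline. The part of shared reads in the Timp1 difference was not tested. Timp2 averaged 123.7 ± 10.6 FPKM in Taurine and 94.1 ± 16.0 FPKM in Proline (SD, n = 3 each), and the lowest Taurine library lay just below the highest Proline library (0.41, SE 0.12, unadjusted p 0.00666, adjusted p 0.178). The fibroblast marker sum also separated these groups, with 7678 to 8993 CPM in Taurine and 5382 to 7117 CPM in Proline. Of these markers, Col3a1 averaged 538 FPKM in Taurine and 368 FPKM in Proline, but Col1a1 averaged 19.1 FPKM in Taurine and 20.8 FPKM in Proline. The part of fibroblasts in the Mmp14 and Timp2 differences was not tested. Mmp13 was also lower in every Taurine library, with 0.0540 to 0.196 FPKM in Taurine and 0.283 to 6.58 FPKM in Proline (-4.13, unadjusted p 0.0219, adjusted p 0.257). Proline 1 was far above the rest, and with single libraries left out the log2 fold change of Mmp13 ranged from -4.66 to -1.54. Mmp12 (-2.62, unadjusted p 0.00916, adjusted p 0.196) and Mmp3 (-1.14, adjusted p 0.365) again turned on Proline 1. DESeq2 called Mmp12 (-2.63, adjusted p 0.0374), Mmp14 (0.33, adjusted p 0.0322) and Timp2 (0.40, adjusted p 0.0378), and limma called none. Leaving out Proline 3 brought Timp2 past the threshold in edgeR (0.55, adjusted p 0.0487). The comparisons with Model share the Model libraries, and those with Proline share the Proline libraries.

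Of the 83 tested genes of the 7 lists, edgeR called 0 in each comparison among tumours. At an unadjusted p under 0.05 there were 6 in Taurine against Model, 22 in Proline against Model and 20 in Taurine against Proline. These are 7.23%, 26.5% and 24.1% of the list genes, against 6.79%, 13.4% and 14.4% of all genes. limma called 0 in each. DESeq2 called 1, 9 and 10, which are 1.2%, 10.8% and 12% of the list genes, against 0.404%, 3.65% and 5.17% of all genes with an adjusted p. Of the 13 AP-1, Ets and Runx factors, 6 had an unadjusted p under 0.05 in Proline against Model, where 13.4% of all genes did. Junb, an AP-1 subunit named after its values were seen, had 42.8 ± 3.21 FPKM in Proline and 23.0 ± 4.21 FPKM in Model (SD, n = 3 each; log2 fold change 0.92, adjusted p 0.113). Reck, chosen in the same way, had 1.95 ± 0.166 FPKM in Taurine and 1.31 ± 0.0851 FPKM in Proline (log2 fold change 0.58, adjusted p 0.0685). Neither passed in edgeR, and DESeq2 called both.

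Among the 9 tumours, Mmp2 followed muscle markers. The summed level of 8 skeletal muscle markers was 416, 122 and 3895 CPM in Taurine, 7.89, 1244 and 900 CPM in Proline, 912, 170 and 53.2 CPM in Model and 16.2 to 20.8 CPM in Control. The tumour library with the highest sum, Taurine 3, also had the highest Mmp2, and the 2 with the lowest sums, Proline 1 and Model 3, had the lowest. Normal lung had more Mmp2 than any tumour library with almost none of these markers. Timp3 was also highest in Taurine 3 but nearly as high in Proline 1, where the muscle markers were lowest. Smooth muscle markers summed to 718 CPM in Taurine 3 and to 117 CPM in Proline 1. Mmp9 was highest in Proline 1, Proline 2 and Model 1, the tumour libraries with the highest neutrophil markers, at 155, 131 and 78.7 CPM over 10 markers, against 27.96 to 54.9 CPM in the other tumours. Of these 10 markers, between 0 and 4 were at 0 counts in a tumour library, mostly Elane, Mpo and Ly6g. All 8 muscle markers were detected in every tumour library. The part of muscle and of neutrophils in these levels was not tested.

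**Figure D5:**
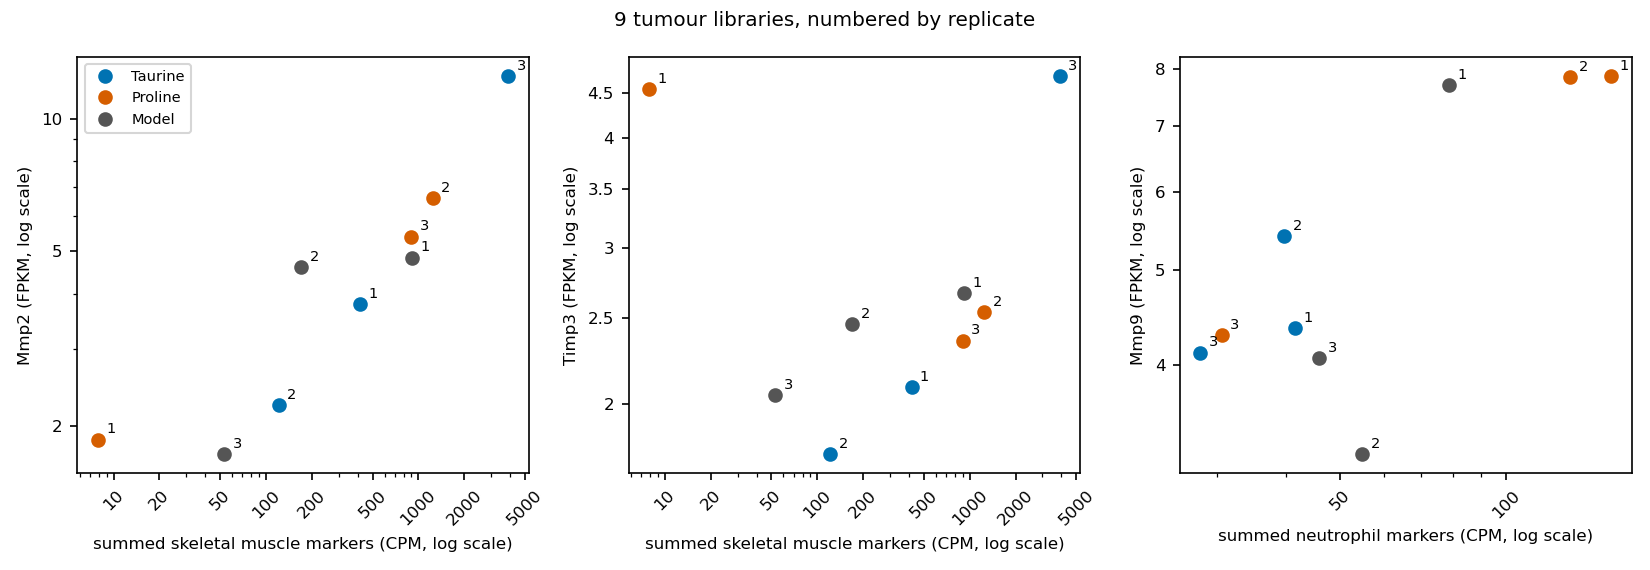
Levels of Mmp2, Timp3 and Mmp9 (FPKM, log scale) against summed marker levels (CPM, log scale) in the 9 tumour libraries, each numbered by replicate. Mmp2 rises with the skeletal muscle markers, Timp3 is high at both ends of that range, and the 3 libraries with the most Mmp9 have the highest neutrophil markers.

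The genes most like each member over the 9 tumour libraries were found from Pearson's r of log2 CPM, as a description without a test. The points share 3 treatment groups and their cell makeup, and the likest of 13044 genes were taken. Mmp2 was most like Smoc2 (r = 0.994), Atcayos (0.991) and Art3 (0.990). Mmp9 was most like Il1r2 (0.949), which encodes a decoy receptor for interleukin 1, then Ifi208 (0.939) and Slc4a11 (0.931). Mmp14 was most like Adamts1 (0.981), Arhgap24 (0.978) and F2r (0.975), and Timp2 like F2r (0.975), Plscr4 (0.974) and Grik5 (0.972), so the thrombin receptor gene F2r stood near both. Timp1 was most like the interferon-induced genes Cmpk2 (0.991) and Bst2 (0.978), with Psd4 (0.988) between them. Timp3 was most like Eln (0.973), which encodes elastin, Ttc9 (0.970) and Tmod2 (0.969).

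The chromosome 9 genes needed the value without Proline 1 as well. Mmp12 was most like Grem1, which encodes a BMP antagonist (r = 0.986, and 0.957 without Proline 1), Bsg (0.980 and 0.942) and Nfkb1 (0.978 and 0.968). Bsg is also in the list of cofactors above. Mmp13 was most like Ltbp2 (0.966 and 0.913), Atp6v0d2 (0.949 and 0.731) and Klf7 (0.945 and 0.773). Mmp3 was most like Ppp1r14a (0.954 and 0.712), Furin (0.938 and 0.919) and Sirpb1a (0.936 and 0.732). Several of these values were much lower without that library, and those of Nfkb1, Grem1, Bsg, Furin and Ltbp2 stayed above 0.9.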

How the data were processed

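The authors deposited 1 table for the series, giving the count and the FPKM of 36254 genes in each of 12 mRNA libraries. The column headers read count and FPKM. The counts were taken as unnormalised, and FPKM as fragments scaled to gene length and library total. Per the labels' protocols, an RNeasy kit gave the RNA and a SMARTer mRNA kit the libraries. The submitters' processing notes name mm10. The aligner, the counter and the strand setting were not given in the sources used here. Genes that share sequence or overlap can share reads, which changes their counts.

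Groups followed the treatment labels. Counts were tested with quasi-likelihood fits in edgeR (version 4.0.16, under R 4.3.3 with limma 3.58.1), with TMM scaling, edgeR's filter on low counts, all 12 libraries in 1 fit, a contrast per comparison and two-sided p-values with Benjamini-Hochberg adjustment over 23191 genes. The threshold was an adjusted p of 0.05. Biological variation between libraries, as edgeR's common coefficient, was 0.437. The alternatives were DESeq2 1.42.0, limma on log2(FPKM + 1) and log2(FPKM + 0.1), other scalings, no filter, fits of 2 groups only and leaving out each library. The fit was tested on simulated counts. Levels are the deposited FPKM, marker sums are CPM after TMM scaling, and intervals are 95%. Positions are from GENCODE M21, since only 3 of the 10 genes have the same position in the deposited table.

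The members and lists were chosen with earlier results of these data known. The rule for naming genes took all members, up to 2 genes per direction of each list with the smallest p among those called, and the 3 genes most like each member with a mean of at least 1 CPM in the tumours, measured on log2(CPM + 0.5). Exceptions are named in the text. Marker sums are levels in bulk RNA, not numbers of cells.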

Additional observations from a re-analysis of the deposited data

How the results depend on the processing

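The calls of Mmp14, Mmp2, Mmp3, Timp1 and Timp3 in Model against Control held under every alternative run, and the count of members called there was 5 to 6 when single libraries were left out. Of 466 values with a library left out, 441 kept direction and side of the threshold, and of 311 others 301 did. Without single libraries, genes called were 12401 to 13711 in Model against Control, 0 to 7 in Taurine against Model, 0 to 232 in Proline against Model and 0 to 312 in Taurine against Proline, and members called in the last were 0 to 1. The highest of these came without Model 3, Proline 3 and Proline 3. Genes called by DESeq2 were 97 in Taurine against Model, 804 in Proline against Model and 1103 in Taurine against Proline. With limma they were 2, 3 and 0 at a pseudocount of 1 and 1, 4 and 1 at 0.1. In Taurine against Proline, where edgeR called 10, there were 0 with median-ratio scaling, 0 with no filter, 0 with only these groups and 13 with no scaling beyond the library total. DESeq2 called 1 member in Proline against Model and 3 in Taurine against Proline.

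Log2 fold changes that changed sign when a library was left out were all uncalled. In Taurine against Model they ranged from -1.22 to 0.74 for Mmp10, -0.49 to 2.97 for Mmp13, -0.0056 to 0.082 for Timp1, -0.28 to 0.55 for Timp3, -0.27 to 1.18 for Mmp2 and -0.31 to 0.37 for Mmp9. In Taurine against Proline they ranged from -5.01 to 0.091 for Mmp10, -0.71 to 0.24 for Timp3, -0.61 to 0.84 for Mmp2 and -1.57 to 0.010 for Mmp3. In Proline against Model, Mmp2 ranged from -0.00342 to 0.71. Leaving out Taurine 3 and Proline 1 together, chosen after seeing the data, gave 7 genes called in Proline against Model and 4 in Taurine against Proline. It turned Mmp2 (-0.27), Mmp9 (0.00225) and Timp3 (-0.28) in Taurine against Model, and Mmp2 (-0.98), Mmp3 (0.028) and Mmp10 (0.26) in Taurine against Proline. Beyond libraries left out, the cause was not tested. No paired analysis was possible because the labels give no replicate numbers shared between groups.

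With 3 libraries a group, the wide intervals of Mmp10, Mmp12 and Mmp13 limit what can be seen between tumours. Mmp10 in Model against Control has no alternative value, since Control is at 0 counts.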
